A study of Mus musculus with 6 samples.

Results

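The genes described here are 10 immediate early genes, most of which encode transcription factors that are switched on in neurons without new protein synthesis: Fos, Fosb, Fosl2, Junb, Egr1, Egr2, Egr3, Egr4, Npas4 and Ier2. They were picked by name, and the values are those of every cytosine that the deposited lists assign to one of them. The lists hold 15994 genes in all. Over the 6 libraries, 4290 of the 5240657 listed cytosines lay in the 10 genes. RNA BS-seq was performed on poly(A) RNA from cortical neurons of wild-type C57BL/6 mouse embryos at E16.5, with male and female tissue pooled, after 7 days in culture. All cultures, the 0 h controls included, had been silenced overnight with 1 μM tetrodotoxin (TTX), which blocks sodium channels, and 100 μM DL-AP5, which blocks NMDA receptors. KCl at 55 mM then depolarized the neurons for 2 h or 6 h, or was not applied (0 h), with 2 biological replicates per time point. Bisulfite turns unmodified cytosine into uracil, read as T, so that the level of a cytosine is the share of reads in which it remained a C.

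Immediate early genes answer a rise in neuronal calcium within minutes, through factors that already sit at their promoters, such as CREB and the serum response factor SRF. Fos, Fosb and Fosl2 encode leucine zipper proteins that pair with Jun proteins such as JunB to form the AP-1 dimer. The Egr genes encode zinc finger proteins that bind GC-rich sites. Npas4 encodes a basic helix-loop-helix PAS protein that is induced by calcium influx in neurons and acts on synapse genes, and Ier2 encodes a small nuclear protein. Their transcripts are short-lived, and the late response genes that they act on follow.

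RefSeq promoters of the GRCm38 assembly, taken as the 250 bases before each start, were matched by symbol for 7 of the 10 genes. The letters TGACG, the core of the site that CREB binds, were searched on both strands. The 7 genes have 11 promoters in the table. The letters stood in 8 of the 11, from Fos, Fosb, Junb, Egr2, Egr4 and Npas4, and in 17.8% of 32851 promoters, so that a match by itself is common. Several promoters of Egr2 overlap and hold the same letters, so that the promoters are not separate cases. By gene, 6 of the 7 had a match. The full palindrome TGACGTCA, which contains TGACG, stood in none of the 11 and in 1.55% of all promoters. A CArG box, the site that SRF binds, stood in 4 of the 11, each of them a promoter of Egr2, and in 1.47% of all promoters. By gene, that is 1 of the 7. TATAAA stood in 1 promoter, that of Fos, and in 7.59% of all promoters. Sites farther than 250 bases from a start were not searched. The Npas4 matches are not shown, because the GENCODE transcript of Npas4 starts 345 nt before the RefSeq start and so contains them. The stretches below show the matches nearest to the start, since they are the letters that set these promoters side by side. Capitals mark the motif, and CGTCA is TGACG read on the other strand.

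Fos, chr12:85473812-85473840, plus strand, 66 bases before the start: agttccgcccagTGACGtaggaagtccat

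Fos, chr12:85473845-85473874, plus strand, 33 bases before the start: tcacagcgcttcTATAAAggcgccagctga

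Fosb, chr7:19310089-19310117, minus strand, 60 bases before the start: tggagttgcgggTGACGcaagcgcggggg

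Junb, chr8:84978838-84978866, minus strand, 106 bases before the start: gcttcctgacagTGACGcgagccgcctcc

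Egr2, chr10:67537787-67537816, plus strand, CArG box 72 bases before the start: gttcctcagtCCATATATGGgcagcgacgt

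Egr2, chr10:67537802-67537830, plus strand, 55 bases before the start: tatgggcagcgaCGTCAcgggtattgaag

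Egr4, chr6:85513682-85513710, minus strand, 109 bases before the start: tttggtcatttaCGTCAcggcgccagggc

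A match is a description of the letters and not of a bound factor.

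A cytosine was listed only when at least 10 reads covered it and at least 1 of them was unconverted. The amount of RNA was therefore followed by the mean coverage per listed cytosine of a gene, divided by a factor for each library, and given below as scaled reads. A library held between 1559828 and 2374392 listed cytosines, with a total coverage of 1637706778 to 2352246636 reads and a median of 324 to 480 reads per cytosine, and replicate 1 of 6 h listed the most at the lowest median. The 10 neuronal markers were listed in all 6 libraries, with a summed level of 23418 to 27298 scaled reads. Astrocyte markers (6 of 6 listed, 4132 to 5420) and markers of the oligodendrocyte lineage (5 of 5 listed, 2151 to 3623) were present as well, as were 4 of 5 progenitor markers (1011 to 1380, with Sox2 not listed). Of 5 microglial markers 1 or 2 were listed per library (197 to 354), and of 4 endothelial markers 0 to 2 (0 to 36.5). The microglial genes Csf1r, P2ry12 and Tmem119 and the endothelial genes Cldn5 and Flt1 were not listed in any library. The oligodendrocyte sum was 3032 and 3156 at 0 h, 2151 and 2205 after 2 h, and 3623 and 3478 after 6 h. Of these 5 genes, 2 were called lower in 2 h vs. 0 h and 3 higher in 6 h vs. 2 h, against 3.08% and 10.9% of all genes. The astrocyte sum was 5420 and 5125 at 0 h, 5303 and 4742 after 2 h, and 4408 and 4132 after 6 h. In 6 h vs. 0 h, 1 of the 6 astrocyte genes and 1 of 4 tested progenitor genes were called lower, against 12.5% of all genes. Among the neuronal markers, Tubb3, a neuronal tubulin gene, was called lower at 2 h (log2 −0.81, limma adjusted p = 0.00709) and Neurod6 higher (0.89, adjusted p = 0.0318). Of the 10 neuronal markers, 3 were called higher and 1 lower in 6 h vs. 0 h, against 12.7% and 12.5% of all genes. The part of these markers in the changes below was not tested. In these bulk samples, fewer cells of a type and less RNA per cell cannot be told apart.

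At 2 h, 5 of the 7 members that could be tested against 0 h had risen, Fos, Npas4, Junb, Ier2 and Fosl2, by 4.07-fold to 156-fold. Across all 12087 genes tested, 3.12% were called higher (limma, Benjamini-Hochberg adjusted p of 0.05 or less). Egr1 (log2 2.58) and Egr3 (0.01) were not called. Fosb and Egr4 had no listed cytosine at 0 h, and Egr2 had a single one in 1 library, so that they were not in the test. At 6 h the same 5 members were called higher than at 0 h, by 3.27-fold to 90.4-fold, against 12.7% of all genes. Both comparisons use the 0 h libraries. The 2 h libraries lay above both 0 h libraries in 6 of the 7 tested members and in 27.1% of all genes, and the 6 h libraries did so in 5 of the 7 and in 33.8% of all genes.

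**Figure D1:**
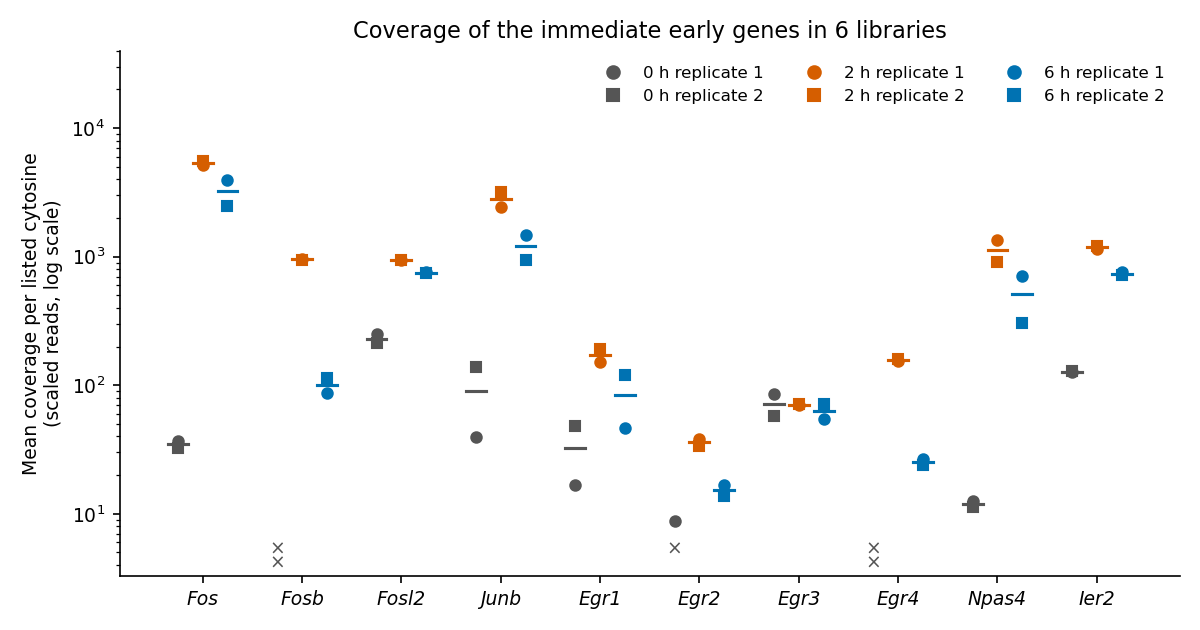
Mean coverage per listed cytosine of the 10 genes in scaled reads (log axis), with 1 point for each library and a horizontal bar at the mean of a time point. A cross marks a library with no listed cytosine of that gene. Fos reaches 5192 and 5596 at 2 h from 36.7 and 32.6 at 0 h, while the points of Egr3 lie between 54.2 and 85.2 at all times.

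Fos (chr12:85473890-85477273, plus strand) had the highest coverage of the members at 2 h and 6 h. Its coverage was 36.7 and 32.6 scaled reads at 0 h, 5192 and 5596 after 2 h, and 3973 and 2462 after 6 h. The 3 time points did not overlap, with the highest values at 2 h. Fos was 156-fold higher at 2 h than at 0 h (log2 fold change 7.28 ± 0.23 (SE), 95% interval 6.74 to 7.83, limma adjusted p = 4.75e-05) and 90.4-fold higher at 6 h (log2 6.50 ± 0.23, adjusted p = 8.77e-05). Between 2 h and 6 h it differed by −0.79 ± 0.23 on the log2 scale, just short of the threshold (adjusted p = 0.0525). Fos was 1 of only 2 members with cytosines listed in all 6 libraries. Over its 17 shared cytosines, the log2 difference was 7.26 in 2 h vs. 0 h, and the −0.87 of 6 h vs. 2 h passed the threshold (limma adjusted p = 0.00268). That fit called 1265 of 4693 genes lower in 6 h vs. 2 h.

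Fosb (chr7:19302696-19310051, minus strand), whose shorter splice form is known to build up under repeated stimulation, was not listed in either 0 h library. At 2 h its coverage was 964 and 941 scaled reads, and at 6 h it was 86.5 and 115. The 2 h libraries lay close together and far above both 6 h libraries. Because nothing was listed at 0 h, no fold change is given for that comparison. edgeR on summed coverage, a test that keeps a library with no listed cytosine as a 0, called Fosb higher at 2 h and at 6 h (adjusted p = 0.000371 and 0.00094). Of 14812 genes, 1.14% and 5.18% were called higher in these comparisons. The 0 of Fosb at 0 h came from the listing rule, which set the direction, so that these 2 calls are not used as evidence of a rise. The same test called Fosb lower at 6 h than at 2 h (adjusted p = 0.017), where 2.27% of genes were called lower. Among the 4 libraries of 2 h and 6 h alone, Fosb fell by 3.27 ± 0.24 (SE) on the log2 scale, a 9.64-fold drop (limma adjusted p = 0.0187), the steepest of the 10 members in that fit. In that fit 7.5% of 12353 genes were called lower. The fit has few degrees of freedom. The difference was −3.29, −3.06 and −3.47 without replicate 2 of 2 h or replicate 1 or 2 of 6 h. Such a fit leaves 1 library in a time point and is too small to tell whether the call holds.

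Fosl2 (chr5:32135801-32157842, plus strand), which encodes the Fos relative Fra-2, was the member with the highest coverage before stimulation and the smallest called rise. It had 249 and 212 scaled reads at 0 h, 936 and 935 after 2 h, and 759 and 745 after 6 h. Replicates were close at 2 h and 6 h, and the groups did not overlap. The rise was 4.07-fold at 2 h (log2 2.03 ± 0.17, adjusted p = 0.00183) and 3.27-fold at 6 h (log2 1.71 ± 0.17, adjusted p = 0.00202). The step from 2 h to 6 h was −0.31 ± 0.17 (adjusted p = 0.223) in the limma fit over all cytosines. Over the 4 cytosines listed in all 6 libraries it was −0.37, which passed (limma adjusted p = 0.00385), where 1265 of 4693 genes were called lower.

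Junb (chr8:84976910-84978718, minus strand), a gene of 1 exon that encodes a Jun-type partner of the Fos proteins, was second to Fos in level at 2 h. Its coverage was 39.6 and 140 scaled reads at 0 h, 2418 and 3170 after 2 h, and 1483 and 941 after 6 h. The 0 h libraries differed from each other by more than those of any other tested AP-1 member. Replicate 1 of 0 h listed 52 Junb cytosines, 41 of which formed a single stretch of 112 nt, and replicate 2 listed 6. Junb was 37.2-fold higher at 2 h (log2 5.22 ± 0.54, adjusted p = 0.00405) and 15.9-fold higher at 6 h (log2 3.99 ± 0.54, adjusted p = 0.00398). When each pair of libraries was compared over the cytosines that both listed (3 to 28 of them), the log2 ratio of 2 h to 0 h was 5.11 to 5.74. The size rests on the 0 h libraries: without replicate 1 of 0 h it was 4.32 at 2 h and 3.08 at 6 h, and without replicate 2 it was 6.14 and 4.90, all called. The 6 h vs. 2 h difference of −1.23 ± 0.54 missed the threshold with all 6 libraries (adjusted p = 0.139) and passed with the 2 h and 6 h libraries alone (−1.24 ± 0.25, adjusted p = 0.0292), a fit without the spread at 0 h. In the latter fit the difference was −1.05, −1.56 and −0.91 without replicate 2 of 2 h or replicate 1 or 2 of 6 h. These fits are too small to tell whether the call holds.

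**Figure D2:**
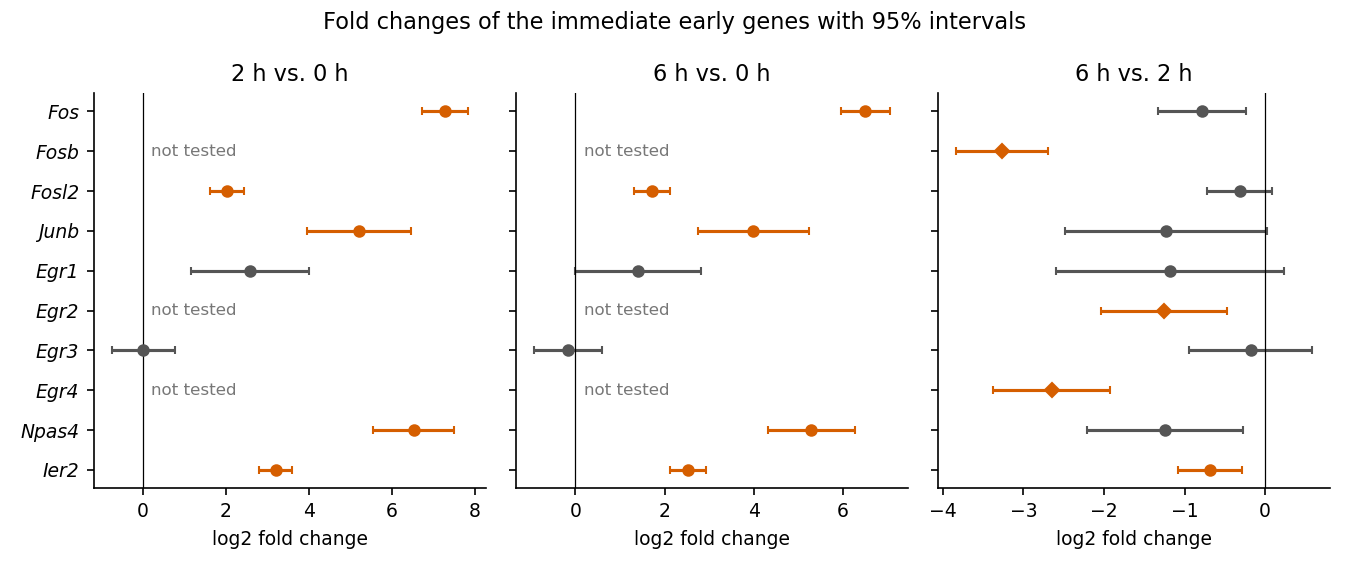
log2 fold changes of the 10 genes in the 3 comparisons, with 95% intervals from limma. Orange marks an adjusted p of 0.05 or less, circles come from the fit of all 6 libraries, and diamonds come from the fit of the 2 h and 6 h libraries alone. Fos, Npas4 and Junb stand farthest to the right at 2 h and 6 h, and Fosb (−3.27) and Egr4 (−2.65) farthest to the left in 6 h vs. 2 h.

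At 2 h the means of the 4 Egr genes (35.9 to 171 scaled reads) lay below those of the 4 AP-1 genes (935 to 5394). Egr1, the family member most used as an activity marker, had 16.7 and 48.4 scaled reads at 0 h, 152 and 190 after 2 h, and 46.7 and 120 after 6 h. The 2 h libraries lay above all others, and the 0 h and 6 h libraries overlapped. The log2 difference was 2.58 ± 0.60 at 2 h (95% interval 1.17 to 3.99, adjusted p = 0.0508) and 1.40 ± 0.60 at 6 h (adjusted p = 0.129), and neither was called. These values rest on single libraries. Without replicate 1 of 0 h they were 1.82 and 0.63, and without replicate 2 of 0 h 3.36 and 2.17. The 6 h value was 2.09 and 0.72 without replicate 1 or 2 of 6 h. Counting cytosines of 20 or more reads gave 1.55 and 0.40. The cytosines behind these means differed between libraries. In replicate 1 of 0 h, 82 of 87 listed Egr1 cytosines lay in the 3′ UTR at a mean of 15.3 unscaled reads, whereas at 2 h 20 of 26 and 33 of 42 lay in the coding sequence at 190 and 199 unscaled reads.

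Egr2 (chr10:67537869-67542188, plus strand) was barely covered. It had 8.81 scaled reads at its single cytosine in replicate 1 of 0 h and none listed in replicate 2, then 38.0 and 33.8 after 2 h, and 16.8 and 13.7 after 6 h. The 2 h libraries were the highest. With the 2 h and 6 h libraries alone, it fell by 1.25 ± 0.32 on the log2 scale (adjusted p = 0.0485). When any one of the 4 libraries was left out, the difference was −1.40 to −1.10, in fits too small to tell whether the call holds. edgeR on summed coverage gave 0.10 (adjusted p = 0.985). At 6 h, replicate 1 listed 42 Egr2 cytosines, of which 41 formed 1 stretch of 106 nt with 2 unconverted reads at each and a median of 15 reads, while replicate 2 listed 1.

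Egr3 (chr14:70077314-70082550, plus strand) was not called in any comparison. Its coverage was 85.2 and 57.6 scaled reads at 0 h, 69.6 and 71.7 after 2 h, and 54.2 and 71.6 after 6 h. All time points overlapped. The 2 h vs. 0 h difference was 0.01 ± 0.33 on the log2 scale (adjusted p = 0.988), with a 95% interval of −0.75 to 0.78, which leaves room for changes below about that size. It rested on 10 to 17 listed cytosines per library, 3 or fewer of which were shared by any pair of libraries from different time points.

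Egr4 (chr6:85511121-85513589, minus strand) was not listed at 0 h, as was the case for Fosb. It had 156 and 160 scaled reads at 2 h and 26.8 and 24.1 at 6 h. The replicates were close and the time points far apart. As for Fosb, the listing rule set the direction of edgeR on summed coverage against 0 h, and its calls there are not used. The same test called Egr4 lower at 6 h than at 2 h (adjusted p = 0.0337). From 2 h to 6 h it fell by 2.65 ± 0.30 on the log2 scale, 6.27-fold (limma on the 4 libraries, adjusted p = 0.0187). The difference was −2.63, −2.72 and −2.57 without replicate 2 of 2 h or replicate 1 or 2 of 6 h. These fits are too small to tell whether the call holds.

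Npas4 (chr19:4984355-4990316, minus strand) was close to the limit of listing in silenced neurons. It had 12.7 and 11.3 scaled reads at 0 h, 1349 and 906 after 2 h, and 712 and 307 after 6 h. The groups did not overlap, and the replicates at 2 h and 6 h differed by a larger ratio than those of Fos or Ier2. The rise was 92.3-fold at 2 h (log2 6.53 ± 0.42, adjusted p = 0.000501) and 39.0-fold at 6 h (log2 5.29 ± 0.42, adjusted p = 0.000999). Replicate 2 of 0 h held 1 listed cytosine and replicate 1 held 18. Over the 11 or 12 cytosines that replicate 1 of 0 h shared with a 2 h library, the log2 ratio was 7.67 and 7.79, more than 1.5 times the fold of the fit. Over the 5 or 11 that it shared with a 6 h library, the ratio was 6.60 and 6.89. The 6 h value was 4.69 without replicate 1 of 6 h and 5.89 without replicate 2, both called. The 6 h vs. 2 h difference was −1.24 ± 0.42 (adjusted p = 0.0729), and −1.85 to −0.64 when 1 library was left out.

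Ier2 (chr8:84661331-84662852, minus strand), also a gene of 1 exon, had 126 and 130 scaled reads at 0 h, 1148 and 1213 after 2 h, and 757 and 715 after 6 h. Replicates were close, and no time points overlapped. It rose 9.24-fold by 2 h (log2 3.21 ± 0.17, adjusted p = 0.00031) and was 5.76-fold above 0 h at 6 h (log2 2.53 ± 0.17, adjusted p = 0.000704). In the limma fit of all cytosines and all 6 libraries, Ier2 alone of the 7 members was called in 6 h vs. 2 h, where it fell by 0.68 ± 0.17 on the log2 scale (adjusted p = 0.0315) and 9.94% of all genes were called lower. That call was lost when any 2 h or 6 h replicate was left out (−0.72 to −0.64).

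Both 6 h libraries lay below both 2 h libraries in 6 of the 7 members tested with all 6 libraries, as they did in 32.1% of all genes. Across the 10 members, the order of the mean levels at 2 h was Fos (5394 ± 285 scaled reads, SD, n = 2), Junb (2794 ± 532), Ier2 (1181 ± 46.0), Npas4 (1128 ± 313), Fosb (952 ± 15.9), Fosl2 (935 ± 0.934), Egr1 (171 ± 27.2), Egr4 (158 ± 3.48), Egr3 (70.7 ± 1.51) and Egr2 (35.9 ± 3.01). The libraries of neighbours in this order overlapped for Ier2 and Npas4, for Npas4 and Fosb, and for Egr1 and Egr4. At 0 h the order began with Fosl2 (231 ± 26.6), Ier2 (128 ± 2.47) and Junb (89.7 ± 70.8), of which Ier2 and Junb overlapped. At 6 h Fos (3218 ± 1069) and Junb (1212 ± 383) again came first, Fosl2 (752 ± 9.44) and Ier2 (736 ± 29.7) overlapped, and Egr4 (25.4 ± 1.94) and Egr2 (15.3 ± 2.23) came last.

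The time course of the 7 tested members was averaged as z-scores and compared with 10080 other genes that had at least 5 listed cytosines in every library. Over the 6 libraries, Pearson's r with this mean was highest for Ip6k2 (0.996), Ice1 (0.994), Nrd1 (0.994), Dnm2 (0.991) and Chka (0.990). These r values describe likeness of shape and not of size. Chka went from 293 and 273 scaled reads at 0 h to 1648 and 1891 at 2 h and 1159 and 1057 at 6 h, while Dnm2 stayed between 546 and 604. Each member is part of this mean, so that its own r is not comparable with those of other genes. Among the members, Ier2 (0.989) and Fosl2 (0.984) lay nearest to the mean and Egr3 (0.0206) farthest from it.

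Other genes of the pathway were counted by list. For these counts, 3.12% of all genes were called higher and 3.08% lower in 2 h vs. 0 h, 12.7% and 12.5% in 6 h vs. 0 h, and 10.9% and 9.94% in 6 h vs. 2 h. Of 11 AP-1 partners, 8 were tested. Maff, which encodes a small Maf protein, was the only one called at 2 h, with 17.6 and 16.4 scaled reads at 0 h and 394 and 807 at 2 h (log2 5.05 ± 0.49, adjusted p = 0.00292), and at 6 h 3 were higher and 1 lower. Of 15 upstream factors of the SRF and CREB type, 13 were tested and 1 rose at 2 h, Crem, which encodes a CREB relative with an inducible repressor form (log2 3.53 ± 0.30, adjusted p = 0.00183). At 6 h 5 of the 13 were higher than at 0 h and 1 lower. Of the 4 Egr corepressors and Npas4 partners, limma called 0 at 2 h (0 at an unadjusted p under 0.05), and 1 was higher at 6 h. Among 19 tested of 25 other rapidly induced genes, 14 rose at 2 h and none fell (Maff stands in this list too), with a median log2 difference of 1.92 against 0.00 over all genes. Nr4a1, an orphan nuclear receptor gene, rose by 6.13 ± 0.34 and Klf4, a zinc finger gene, by 3.95 ± 0.32 on the log2 scale (adjusted p = 0.000322 and 0.00153). From 2 h to 6 h, 6 of these 19 fell and 1 rose. Late response genes were listed by 12 symbols, 2 of which stand for the same gene, and 10 were tested. Of these 10, 5 rose at 2 h, 7 were higher at 6 h than at 0 h and 7 were higher at 6 h than at 2 h, with medians of 1.31, 2.58 and 0.86. Bdnf, which encodes a neurotrophin, had 62.2 and 39.6 scaled reads at 0 h, 852 and 542 after 2 h, and 1781 and 1305 after 6 h. Pcsk1, which encodes a prohormone convertase, rose by 4.53 ± 0.26 at 2 h and Vgf, which encodes a secreted neuropeptide precursor, by 3.04 ± 0.16 on the log2 scale (adjusted p = 0.000322 and 0.00031).

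The number of listed cytosines tended to follow coverage. The 10 genes had 687 and 210 listed cytosines at 0 h, 2004 and 2136 after 2 h, and 1686 and 1602 after 6 h. Because a cytosine needs 10 reads and 1 unconverted read to be listed, a gene with more reads tends to show more of its cytosines, and these counts say nothing of methylation by themselves. Several members had libraries that went against this. Egr1 had 87 listed cytosines in replicate 1 of 0 h and 26 and 42 at 2 h, and Egr2 had 42 in replicate 1 of 6 h and 8 and 6 at 2 h. Npas4 had 213 and 365 after 2 h, then 108 and 442 after 6 h, and so listed the most cytosines in the 6 h library of lower coverage. Fosb had 128 and 37 at 6 h, with more again in the library of lower coverage. In the union of all libraries, 554 of the 584 cytosines of the Fos transcript were listed (94.9%), 80.0% of those of Fosl2, 62.0% of Npas4, 61.3% of Junb, 52.0% of Ier2, 43.4% of Fosb, 19.8% of Egr1, 11.5% of Egr4, 6.90% of Egr2 and 6.76% of Egr3. For Fos, 190 and 70 cytosines were listed at 0 h, 422 and 378 after 2 h, and 312 and 404 after 6 h. Many entries at 0 h had little behind them. There 60.5% and 95.7% of the listed Fos cytosines had a single unconverted read, against 31.3% and 22.8% at 2 h.

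**Figure D3:**
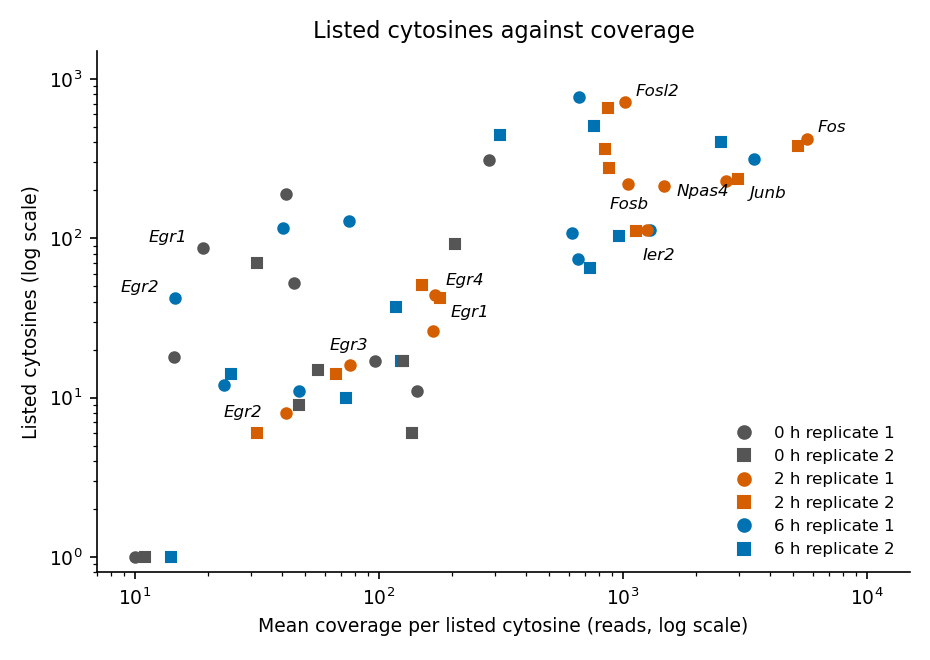
Number of listed cytosines of each gene and library against its mean coverage per listed cytosine in unscaled reads, both on log axes. Points of higher coverage mostly lie at more listed cytosines. Egr1 in replicate 1 of 0 h (87 cytosines) and Egr2 in replicate 1 of 6 h (42 cytosines) lie above points of the same gene at higher coverage, as does Npas4 in replicate 2 of 6 h (442 cytosines).

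Some libraries listed long stretches in which every cytosine in a row was listed. In replicate 1 of 0 h such a stretch held 38 of the 87 Egr1 cytosines and 10 of the 18 Npas4 cytosines, each with a median of 1 unconverted read. In replicate 1 of 6 h a stretch of 33 of the 116 Egr1 cytosines had 1 unconverted read at each. In Fos at 2 h the longest stretches held 99 and 128 cytosines over 413 and 486 nt, but there the median was 7 and 5 unconverted reads of 12381 and 6887. Reads with more than 3 unconverted cytosines are removed by the 3C filter of the study's methods, which needs single reads, so that its effect on these stretches was not tested.

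Reads were not spread evenly along the transcripts. At 2 h the coding sequence of Junb had a mean of 3468 and 3594 unscaled reads per listed cytosine, and its 3′ UTR had 291 and 221. For Fosl2 the means were 2553 and 2394 in the coding sequence and 543 and 444 in the 3′ UTR, which held 499 of 714 and 476 of 658 listed cytosines. In Fos the coding sequence had 6949 and 5818 and the 3′ UTR 3215 and 4370. The mean coverage of a gene therefore depends on which of its parts were listed.

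**Figure D4:**
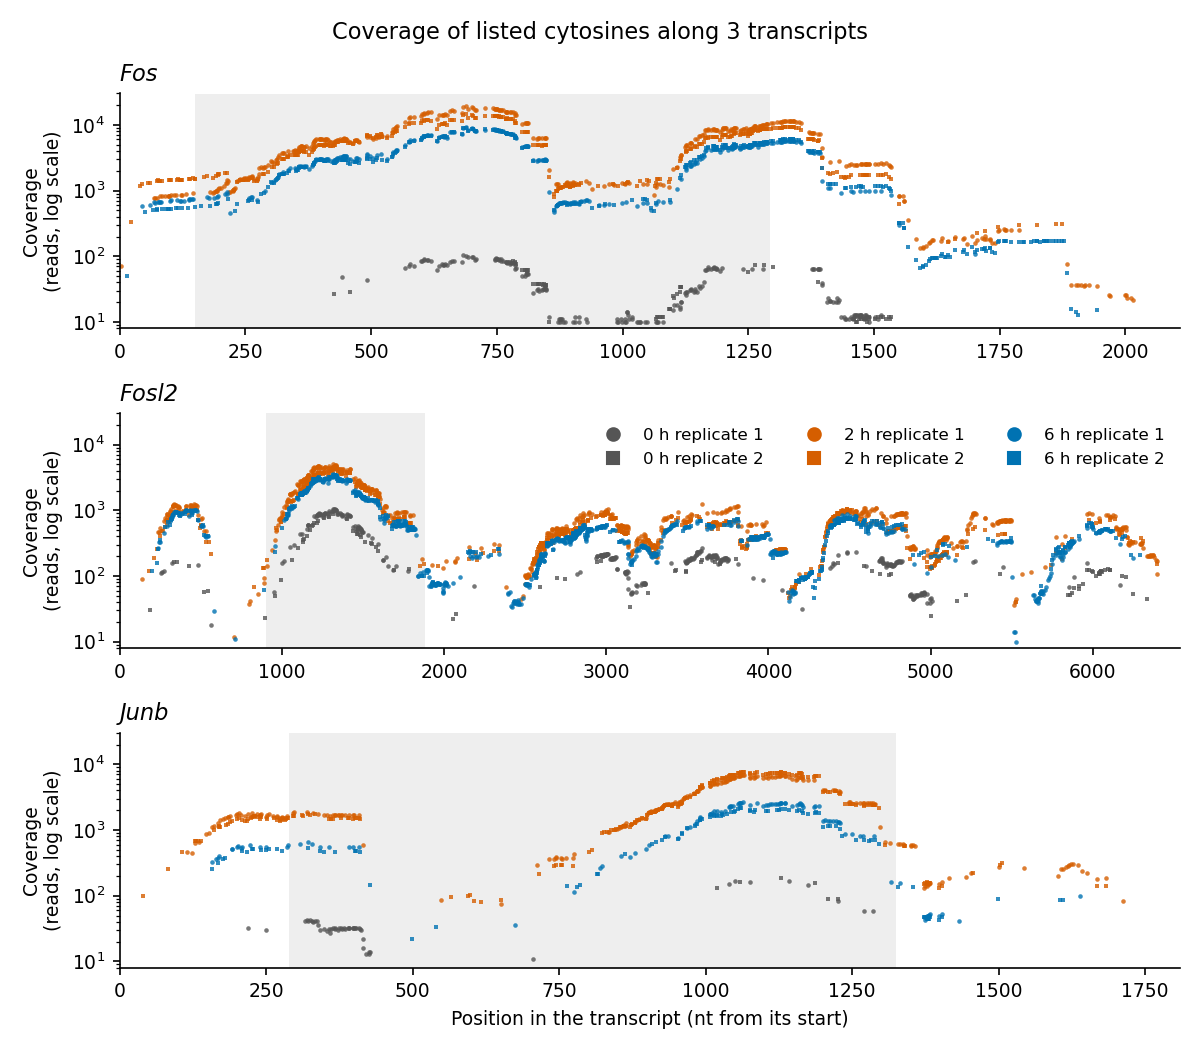
Coverage of each listed cytosine in unscaled reads (log axis) along the transcripts of Fos, Fosl2 and Junb, by position from the transcript start, with 1 colour and marker for each library and the coding sequence shaded grey. The points of 2 h lie highest and those of 0 h lowest in Fos and Junb, and the 3′ UTR of Junb lies below most of its coding sequence.

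The standard filter of the methods keeps a cytosine covered by 20 or more reads, of which 6 or more and 10% or more are unconverted. Among the members, 0 and 0 cytosines passed it at 0 h, 11 and 10 after 2 h, and 10 and 9 after 6 h. These were 0.55% and 0.47% of the members' cytosines with at least 20 reads at 2 h and 0.62% and 0.57% at 6 h, against 0.17% to 0.25% in the libraries over all genes. Over all libraries 11 different cytosines passed, 10 in Junb and 1 in Egr3. The further filters of the study's methods, on reads with more than 3 unconverted cytosines, on signal against noise, on the false discovery rate and on RNA secondary structure, were not repeated here, so that passing refers to the standard filter alone. No cytosine of Fos, Fosb, Fosl2, Npas4, Ier2, Egr1, Egr2 or Egr4 passed. The Egr3 cytosine (chr14:70079021, coding sequence) passed in 1 library alone, with 7 unconverted of 67 reads in replicate 1 of 2 h, a level of 10.4% (exact 95% interval 4.30% to 20.3%), and was not listed in the other libraries. Egr4 showed up to 15% in replicate 2 of 6 h, with 3 unconverted of 20 reads. At the highest coverage the levels were low: the median level in Fos at 2 h was 0.0802% and 0.0742%.

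The 10 Junb cytosines lay close together in the 3′ UTR (chr8:84977316-84977346). They sit in both arms of an inverted repeat, stretches of 12 nt that are exact reverse complements of each other with 10 nt between them. The arms are shown because nearly all of their cytosines are among those that passed. Capitals mark the cytosines that passed the filter in at least 1 library, written 5′ to 3′ in the RNA sense.

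Junb upstream arm, chr8:84977337-84977348, minus strand: cgCCtgCCCCCC

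Junb downstream arm, chr8:84977315-84977326, minus strand: ggggggCaggCg

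Of the 9 cytosines of the upstream arm 8 passed, as did both of the downstream arm. The first cytosine of the upstream arm and the 1 cytosine of the loop were not listed in any library. The cytosine at chr8:84977320 had the highest mean level, with 68 of 153 reads unconverted (44.4%, exact 95% interval 36.4% to 52.7%) and 52 of 131 (39.7%, 31.3% to 48.6%) at 2 h, and 25 of 49 (51.0%, 36.3% to 65.6%) and 13 of 43 (30.2%, 17.2% to 46.1%) at 6 h. In the run of 6 adjacent cytosines at chr8:84977337-84977342 the levels were 23.4% to 43.7% over the 4 libraries. The other 3 had 10.4% to 34.6%, and 1 of them, chr8:84977316, fell short of the filter in replicate 2 of 6 h with 5 of 48 reads. Replicate 1 was higher than replicate 2 at each of the 10 cytosines at both 2 h and 6 h. None of the 10 was listed at 0 h, where replicate 1 listed 2 cytosines in the 100 nt on either side at a mean of 58 reads and replicate 2 listed none. The intervals cover counting error only, since copies of a molecule made by PCR were not told apart.

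**Figure D5:**
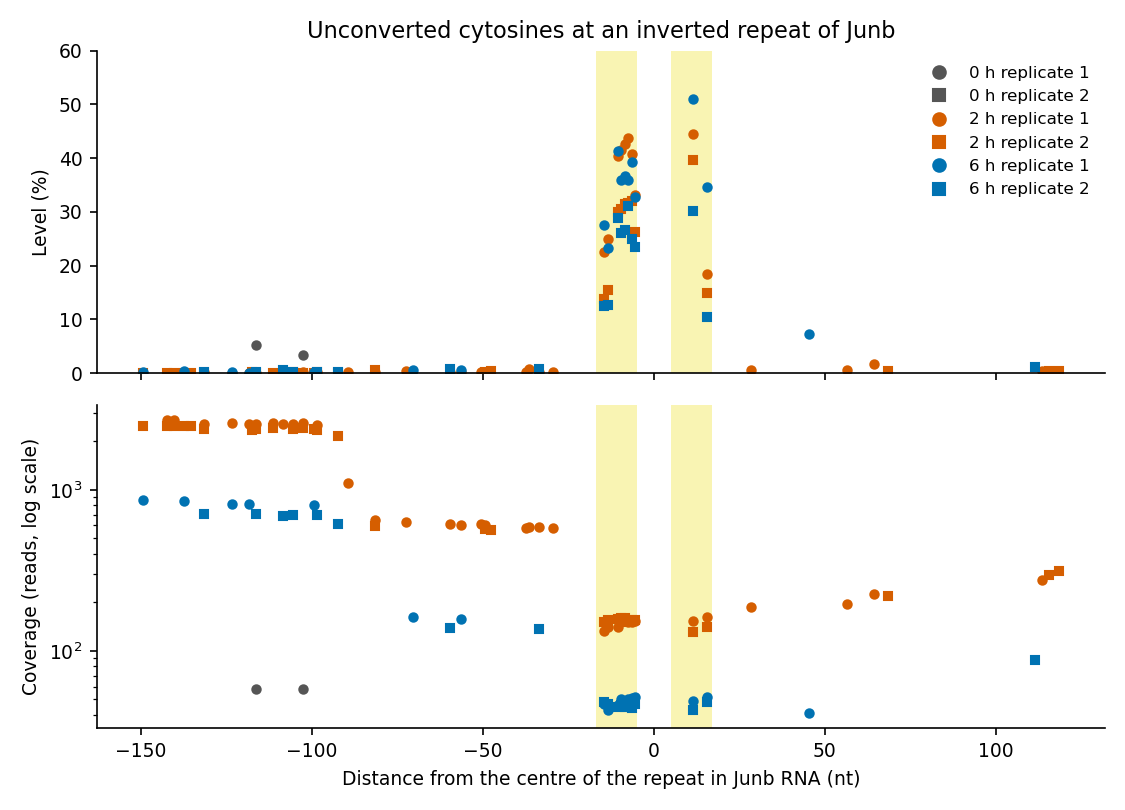
Level (%, upper plot) and coverage in unscaled reads (log axis, lower plot) of listed Junb cytosines against their distance from the centre of the repeat in nt, with 1 colour and marker for each library and the arms shaded. Inside the arms the levels reach 51.0%. Within 100 nt, the coverage is higher on the upstream side than in the arms, while the few cytosines on the downstream side lie closer to the arms.

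Within the repeat the pooled level was 35.4% and 26.5% at 2 h and 36.0% and 22.5% at 6 h, while within 100 nt on either side it was 0.218%, 0.112%, 0.514% and 0.345%. The mean coverage of the repeat cytosines was 150 and 152 reads at 2 h and 48.9 and 45.8 at 6 h. On the upstream side, cytosines within 100 nt had 576 to 2602 and 563 to 2419 reads at 2 h and 158 to 805 and 137 to 704 at 6 h. On the downstream side, which runs towards the 3′ end, 4 and 2 listed cytosines had 186 to 277 and 219 to 295 reads at 2 h, and 1 in each library had 41 and 88 reads at 6 h. At 2 h the repeat was thus covered less than either side, and it differed less from the downstream side. Part of the fall lay upstream of the arms. In replicate 1 of 2 h coverage went from 2517 reads at −98.5 nt from the centre of the repeat to 649 at −81.5 nt. The arms were the longest exact inverted repeat in the 10 transcripts, with 11 nt in Egr1, 10 nt in Fosl2, Egr3 and Egr4, and 7 to 9 nt in the other members (loops of 3 to 30 nt). In a fold of the Junb transcript at 70 °C, the median pairing probability was 0.988 for the 10 cytosines and 0.620 for the other 556, of which 4.86% were at or above 0.988. The methods of the study list a filter on sites within RNA secondary structure. Whether pairing, read loss or methylation sets these levels was not tested.

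Under the standard filter, these 10 were the member cytosines that could be compared between 2 h and 6 h. The difference was −5.31 to 5.81 percentage points, and none was called (Fisher's exact test, two-sided, with the reads of replicates added up, adjusted p = 0.558 to 1, unadjusted p = 0.181 or more), while the same test called 12% of 2772 sites over all genes. limma on the log2 ratios called 0 of all 2772 (153 at an unadjusted p under 0.05). Without replicate 2 of 6 h, chr8:84977316 was called higher at 6 h, so that its result rests on that library. No member cytosine met the conditions for 2 h vs. 0 h or 6 h vs. 0 h, in which 10.6% of 2527 and 6.91% of 2661 sites were called. These background counts rest on single libraries as well. The 267 calls of 2 h vs. 0 h became 170 without replicate 1 of 0 h, the 184 of 6 h vs. 0 h became 489 without replicate 2 of 6 h, and the 332 of 6 h vs. 2 h became 551 without replicate 2 of 6 h. A test of every cytosine of 20 or more reads in the 4 libraries is void against 0 h. A Fos cytosine of low coverage at 0 h is listed only if 1 read is unconverted, so that its level there cannot fall below 1 read over its coverage, which sets the direction. The cytosines it called lower, 16 of 30 in 2 h vs. 0 h and 13 of 27 in 6 h vs. 0 h and each of them in Fos (0.0768% and 0.118% of all cytosines), therefore say nothing of methylation. In 6 h vs. 2 h, where Fos coverage was high in both groups, 0 of 328 member cytosines were called by Fisher's exact test (19 at an unadjusted p under 0.05), against 0.672% of all cytosines in either direction.

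At very high coverage the limit of 1 unconverted read weighs least. Over member cytosines covered by 5000 or more reads whose level was under 1%, it was 0.0682% at 2 h (exact 95% interval 0.0658% to 0.0707%, 262 and 238 cytosines), and the other genes had 0.0843%. These cytosines were in Fos (0.0675%) and Junb (0.0717%), apart from 1 in Fosl2. At 6 h only Fos cytosines qualified, 81 and 78 of them, with 0.0736% and 0.0675% in replicates 1 and 2, and the other genes had 0.115% and 0.0866%. At 0 h no member cytosine had 5000 reads. The members' pooled shares were below those of the other genes in each of these libraries, and the difference was not tested. The share depended on the minimum: with 2000 reads or more it was 0.0733% in the members and 0.0919% in the other genes at 2 h. At that minimum not every member lay below, since Fosb had 0.105% and 0.120% at 2 h, against 0.0927% and 0.0909% in the other genes, and Junb had 0.118% in replicate 2 of 6 h, against 0.0945%.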

How the data were processed

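The study sequenced bisulfite-treated poly(A) RNA of 6 libraries, and the authors used meRanTK for alignment to GRCm38 and its meRanCall for calling cytosines. Per the file headers, the deposited lists give read counts per position (coverage, unconverted reads and reads of other bases, not normalized) and the level as a fraction. No aligner parameters were repeated here, and the study's RNA-seq libraries were not analysed here. Rows with reference base C and state M and 1 gene name were used.

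For each gene listed in all 6 libraries, log2 of the mean coverage per listed cytosine, divided by the median ratio of the library over genes, was fitted with limma 3.58.1 (trend, 3 residual degrees of freedom, all libraries, two-sided, Benjamini-Hochberg over 12087 genes). Tested on simulated data for 2 h vs. 0 h (12087 genes), the fit recovered 20 of 100 genes changed by 1 and 56 of 100 changed by 2 on the log2 scale, with 1 false call. Sites with at least 10 reads in the 4 libraries compared that passed the standard filter in both replicates of a time point were tested by Fisher's exact test. Shares have exact binomial intervals.

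Alternatives were other summaries of a gene (median, shared cytosines with limma, edgeR 4.0.16 or DESeq2 1.42.0, summed coverage with edgeR), other minimums, other scalings (read pairs, total coverage), the replicate block, and leaving out each library. The 90th percentile, the fit of 4 libraries and the shared cytosines of library pairs were added after the data were seen. Transcripts came from GENCODE M21, promoters from RefSeq, and folds from RNAfold of ViennaRNA 2.7.2 (largest span 150 nt). Other software was R 4.3.3, scipy 1.17.1, numpy 2.4.6, numba 0.67.0, pandas 2.3.3, matplotlib 3.10.9 and Python 3.11.15, and the submitters' processing notes name R 4.1.1 and mm10.

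The members and gene lists were chosen with earlier results of these data known. Named were all members, the called genes of each pathway list with the largest change at 2 h (at most 3), the 5 genes most alike in time course, and member positions that passed the standard filter. Tubb3 and Neurod6 were named after their values were seen.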

Additional observations from a re-analysis of the deposited data

How the results depend on the processing

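Of the members, 5 were called in 2 h vs. 0 h and 5 in 6 h vs. 0 h, also without any one library. With the median per gene 3 were called in 2 h vs. 0 h, since Fosl2 (adjusted p = 0.0579) and Junb (0.103) missed the threshold, and 4 in 6 h vs. 0 h, since Junb missed it (0.0572). Over cytosines listed in all 6 libraries (limma, edgeR or DESeq2) and with at least 20 listed cytosines per gene, 2 of 2 tested members were called in each of these comparisons. In 6 h vs. 2 h the count was 1 with Ier2. It was 0 with the median, with at least 20 listed cytosines and with a fold change of at least 2. Over shared cytosines it was 2, where limma called 1265 of 4693 genes lower, and 2 with at least 20 reads (1300 of 11546). The count was 3 with edgeR on summed coverage (Egr4, Fosb and Junb, 336 of 14812) and with scaling by read pairs (1613 of 12087) or total coverage (1407). With the 90th percentile it was 4 (2132 of 12087), and with the 2 h and 6 h libraries alone 5 (926 of 12353). No count is given with 1 library left out, since most such fits leave 1 library in a time point.

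Egr3 changed sign. In 2 h vs. 0 h it was −0.10 with the median, −0.15 with edgeR on sums, −0.075 with at least 20 reads, −0.0087 with at least 5 listed cytosines, −0.12 and −0.23 with scaling by read pairs and total coverage, −0.0095 with the 90th percentile, and from −0.26 to 0.30 when 1 library was left out (−0.01 without replicate 2 of 2 h). In 6 h vs. 0 h it was −0.45 to 0.12 when 1 library was left out (0.036 without replicate 1 of 6 h), and in 6 h vs. 2 h −0.38 to 0.022 (−0.39 to 0.012 in the fit of 4 libraries). Egr2 was 0.10 in 6 h vs. 2 h with edgeR on sums. None of these passed the threshold, and the cause was not tested.

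In gene coverage, replicate numbers did not pair the libraries: correlations of deviations between same-numbered libraries were 0.0522, −0.0135 and −0.0299. With the replicate block, Egr1 was called in 2 h vs. 0 h (adjusted p = 0.0272) and 6 h vs. 0 h (0.0455), giving 6 members in each, and in 6 h vs. 2 h Npas4 (0.0436) was called in place of Ier2 (0.0506). The block changed no other member's call. Pairing was not checked on methylation levels, where the block moved the site calls over all genes from 267, 184 and 332 to 242, 197 and 428 and called no member site.

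Over all genes, 749, 3052 and 2524 were called in 2 h vs. 0 h, 6 h vs. 0 h and 6 h vs. 2 h. The counts were 49, 632 and 9 with the median, 254, 1317 and 759 with edgeR on sums, 345, 2026 and 1588 with at least 20 listed cytosines, 1816, 4768 and 4322 with the 90th percentile, and 109 to 317, 1285 to 2902 and 304 to 1973 without 1 library. In 2 h vs. 0 h, 1295, 1329 and 1575 were called over shared cytosines with limma, edgeR and DESeq2. With scaling by read pairs and by total coverage, the median log2 change of all genes was −0.13 and −0.24 in 2 h vs. 0 h, −0.25 and −0.40 in 6 h vs. 0 h, and −0.12 and −0.15 in 6 h vs. 2 h, against 0.0014, 0.0090 and 0.011. The share of calls that were higher in 2 h vs. 0 h was 50.3%, and 32.8% and 20.6% under these scalings. In 6 h vs. 0 h it was 50.4%, 25.2% and 15.8%, and in 6 h vs. 2 h 52.4%, 37.3% and 35.0%. It was 83.7% with the median, 66.5% with edgeR on sums, 61.7% with at least 20 listed cytosines, 35.0% without a trend, 39.2% with a fold change of at least 2, and 89.2% and 92.7% without replicate 1 or 2 of 0 h in 2 h vs. 0 h. It was 61.3% without replicate 1 of 0 h in 6 h vs. 0 h. For 6 h vs. 2 h it was 64.5% and 64.3% without replicate 1 or 2 of 2 h and 37.4% and 36.2% without replicate 1 or 2 of 6 h.

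With every cytosine of at least 20 reads, 16 member cytosines were called in 2 h vs. 0 h and 13 in 6 h vs. 0 h, a void test, since the listing rule sets the direction. In 6 h vs. 2 h, 0 to 1 member site was called without 1 replicate. limma called 0 of 2527, 2661 and 2772 sites in the 3 comparisons (215, 74 and 153 at an unadjusted p under 0.05), where Fisher's exact test called 267, 184 and 332 (170 to 263, 132 to 489 and 224 to 551 without 1 library). Fisher calls over all sites were 108, 89 and 161 with a level of at least 20% and 728, 2128 and 2321 with every cytosine. The unconverted share of the members at 2 h was 0.0733% with at least 2000 reads. Coverage limits the 0 h values most, where 7 of the 10 members had a mean under 50 unscaled reads or were not listed in a library.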
